A study of Mus musculus with 18 samples.

Results

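The matrix metalloproteinases (MMPs), their tissue inhibitors (TIMPs) and the ADAMTS proteases with the related ADAMTS-like proteins were followed in mouse kidney cortex during injury by aristolochic acid I. Members were all rows of the deposited gene table whose symbol begins with Mmp or Timp and a digit, or with Adamts. They were 51 of 24062 rows, with 23 MMP genes, 4 TIMP genes, 19 ADAMTS genes and 5 ADAMTS-like genes. Of these, 38 reached the level needed for testing (1 CPM or more in 3 or more libraries, CPM being reads scaled to the library total), as did 14604 genes of the whole table. All 51 symbols matched GENCODE release M21, 50 of them as protein-coding genes and Mmp1a as a polymorphic pseudogene.

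The 18 libraries, 3 in each of 6 groups, hold total RNA of perfused cortex from C57Bl/6 mice. The genotypes are Klf6fl/fl (fl/fl), with loxP-flanked alleles of the zinc finger transcription factor Klf6, and Klf6PTKO (PTKO), the knockout line for the proximal tubule. Each genotype received the vehicle DMSO, aristolochic acid I (AAI, a plant nephrotoxin taken up by the proximal tubule) with kidneys collected at 3 weeks, or the same AAI course with 3 further weeks of remodeling, called 6 weeks. The genotype comparison asks how loss of Klf6 in the proximal tubule bears on this injury. The Cre driver, the age and sex of the mice, the week of the DMSO kidneys and whether a group's libraries are from separate animals are not given in the sources used here, so p-values measure a spread between libraries that may be technical.

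MMPs are zinc-dependent enzymes that are made as inactive precursors and, once activated, cut collagens, proteoglycans, cell surface proteins and other proteases. TIMPs block their active sites, and TIMP3, which stays bound to the matrix, also blocks several ADAM and ADAMTS proteases. ADAMTS proteases trim procollagens, cut the large proteoglycans versican and aggrecan, or process other matrix proteins, whereas ADAMTS-like proteins resemble them without a protease domain. In the injured kidney these transcripts are known from regenerating or failing tubule cells, from fibroblasts and from macrophages that enter the tissue.

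Of the 23 MMP genes, 10 lie side by side on chromosome 9 (mm10, chr9:7272514-7699585, 427.1 kb), with 0 other protein-coding genes between them, and Mmp7 and Mmp12 are both in this cluster. The 250 bases before a RefSeq transcription start of 5 cluster genes that were higher after AAI are shown, chosen because the same short motif occurs in each. Capitals mark the AP-1 motif (TGAGTCA on either strand, so TGACTCA on the strand shown for Mmp13) and TATAAA on the sense strand. All are on the plus strand and come from RefSeq promoters on GRCm38.p6.
Mmp7 (chr9:7691840-7692089): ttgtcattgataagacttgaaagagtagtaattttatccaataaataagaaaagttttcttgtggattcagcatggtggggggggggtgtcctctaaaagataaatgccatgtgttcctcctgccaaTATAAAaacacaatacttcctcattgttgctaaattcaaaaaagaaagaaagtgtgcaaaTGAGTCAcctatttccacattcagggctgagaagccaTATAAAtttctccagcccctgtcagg
Mmp12, second of its starts (chr9:7347124-7347373): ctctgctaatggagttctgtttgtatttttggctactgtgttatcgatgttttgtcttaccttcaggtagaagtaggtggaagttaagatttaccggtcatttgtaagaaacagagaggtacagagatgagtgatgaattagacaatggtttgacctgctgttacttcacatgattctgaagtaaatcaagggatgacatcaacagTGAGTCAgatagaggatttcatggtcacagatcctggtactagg
Mmp3 (chr9:7445572-7445821): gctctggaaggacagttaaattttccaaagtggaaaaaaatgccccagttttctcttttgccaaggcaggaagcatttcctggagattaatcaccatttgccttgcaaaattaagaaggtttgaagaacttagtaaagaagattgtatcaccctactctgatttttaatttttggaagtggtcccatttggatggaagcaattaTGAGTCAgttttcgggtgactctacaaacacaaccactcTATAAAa
Mmp10 (chr9:7502092-7502341): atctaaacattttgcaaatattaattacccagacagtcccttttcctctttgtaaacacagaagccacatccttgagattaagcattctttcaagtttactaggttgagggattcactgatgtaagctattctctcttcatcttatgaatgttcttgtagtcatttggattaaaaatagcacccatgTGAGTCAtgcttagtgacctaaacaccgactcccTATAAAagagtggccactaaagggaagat
Mmp13 (chr9:7272264-7272513): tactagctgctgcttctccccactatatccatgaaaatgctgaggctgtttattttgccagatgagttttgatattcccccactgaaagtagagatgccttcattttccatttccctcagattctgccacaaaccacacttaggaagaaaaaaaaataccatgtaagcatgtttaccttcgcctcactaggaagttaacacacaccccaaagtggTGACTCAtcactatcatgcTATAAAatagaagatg
The AP-1 motif begins 63 bases before the start in Mmp7 and Mmp10, 46 in Mmp3, 44 in Mmp12 and 35 in Mmp13. The windows before the first Mmp12 start and a second Mmp7 start do not hold it. It was present in 7 of the 10 cluster genes (70.0%), against 5.16% of all 27025 genes with a promoter in the table, counting any start. The 36 members with a promoter entry held it in 7 cases, all of them in the cluster. Mmp1a and Mmp1b carry it 73 and 93 bases before their starts although Mmp1a had 0 reads in all 18 libraries and Mmp1b at most 0.0511 CPM. Mmp8, which was also called higher in fl/fl, and Mmp20 and Mmp27 do not hold these letters in the window. TATAAA was present in 70.0% of the cluster genes, 27.8% of the members with an entry and 8.94% of all genes. The match is a description of sequence and says nothing of which factor binds there.

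Recovered read totals ran from 11722625 to 27213219 per library, lowest in fl/fl 6-week replicate 2. PTKO DMSO replicate 2 and PTKO 6-week replicate 2 stood apart by 5 adipocyte markers, whose sum was 18.3 and 115 CPM there and at most 0.773 CPM in the other libraries. Klf6 held 39.7, 39.2 and 42.3 CPM in fl/fl kidneys and 40.2, 43.2 and 56.7 CPM in PTKO under DMSO, and 201 to 308 and 228 to 370 CPM after AAI. Whole cortex holds the Klf6 transcripts of all its cells, so this level does not check the genotype label. The 7 proximal tubule markers of the cortex summed to 15600 to 19000 CPM in DMSO libraries.

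Across the 6 groups most members were low in DMSO kidneys and higher after AAI. Summed over the 23 MMP genes, the level was 44 ± 7.51 CPM (mean ± SD, n = 3) in fl/fl and 43.9 ± 5.88 CPM in PTKO under DMSO. At 3 weeks of AAI the sum was 1740 ± 512 CPM in fl/fl kidneys and 571 ± 195 CPM in PTKO, and at 6 weeks 1370 ± 656 and 359 ± 112 CPM. Mmp12 alone made up 48.7% to 60.9% of the MMP sum in the fl/fl 3-week libraries, and without it the sums were 743 ± 128 CPM in fl/fl kidneys and 413 ± 43.1 CPM in PTKO. The TIMP sum, most of it Timp3, went the other way, from 3850 ± 355 CPM in fl/fl DMSO kidneys to 1860 ± 69.2 CPM at 3 weeks. Without Timp3 the TIMP sum rose, from 63.3 ± 22.6 to 592 ± 114 CPM in the same groups. The 19 ADAMTS genes summed to 135 ± 22.4 CPM under DMSO and 577 ± 36.3 CPM at 3 weeks in fl/fl, with 539 ± 38 CPM in PTKO at 3 weeks.

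Changes were tested with limma on log2(CPM + 1) across all 14604 genes, and a call is a Benjamini-Hochberg adjusted p under 0.05. Fold changes are differences on this log2 scale, which understates the change of low genes. In fl/fl at 3 weeks 31 of the 38 tested members rose and 1 fell, with a median of 1.98, while 58% of all tested genes rose, 18.2% fell and the median was 0.45. In PTKO at 3 weeks 27 rose and 2 fell (median 1.6), against 57.2% and 13.9% of all genes (0.42). At 6 weeks 30 rose and 1 fell in fl/fl (median 1.89), against 59.8% and 13.9% (0.45), and 24 rose and 3 fell in PTKO (median 1.12), against 53.7% and 11.4% (0.36). With median-of-ratios scaling the all-gene medians moved to 0.03, 0.01, 0.02 and 0.01 in the same order, and members called higher and lower were 30 and 2, 26 and 3, 29 and 3, and 22 and 4. All genes then split into 36.7% higher and 34.2% lower in fl/fl and 32.9% and 31.3% in PTKO at 3 weeks, and into 34.1% and 32.5% in fl/fl and 28.7% and 28.9% in PTKO at 6 weeks. Both times share the DMSO libraries of their genotype. Mmp3, Mmp7, Mmp8, Mmp24, Mmp25, Timp1 and Adamts8 were below 1 CPM in every DMSO library. They passed the filter through AAI libraries only, and all of them rose in fl/fl at 3 weeks. Mmp19, Adamts3 and Adamts12, which also rose there, and Adamtsl3, which was not called, reached 1 CPM in fewer than 3 DMSO libraries. These genes too needed AAI libraries to pass the filter. The counts and medians of members therefore include genes that could be tested only by being higher after AAI, and they are a description.

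**Figure D1:**
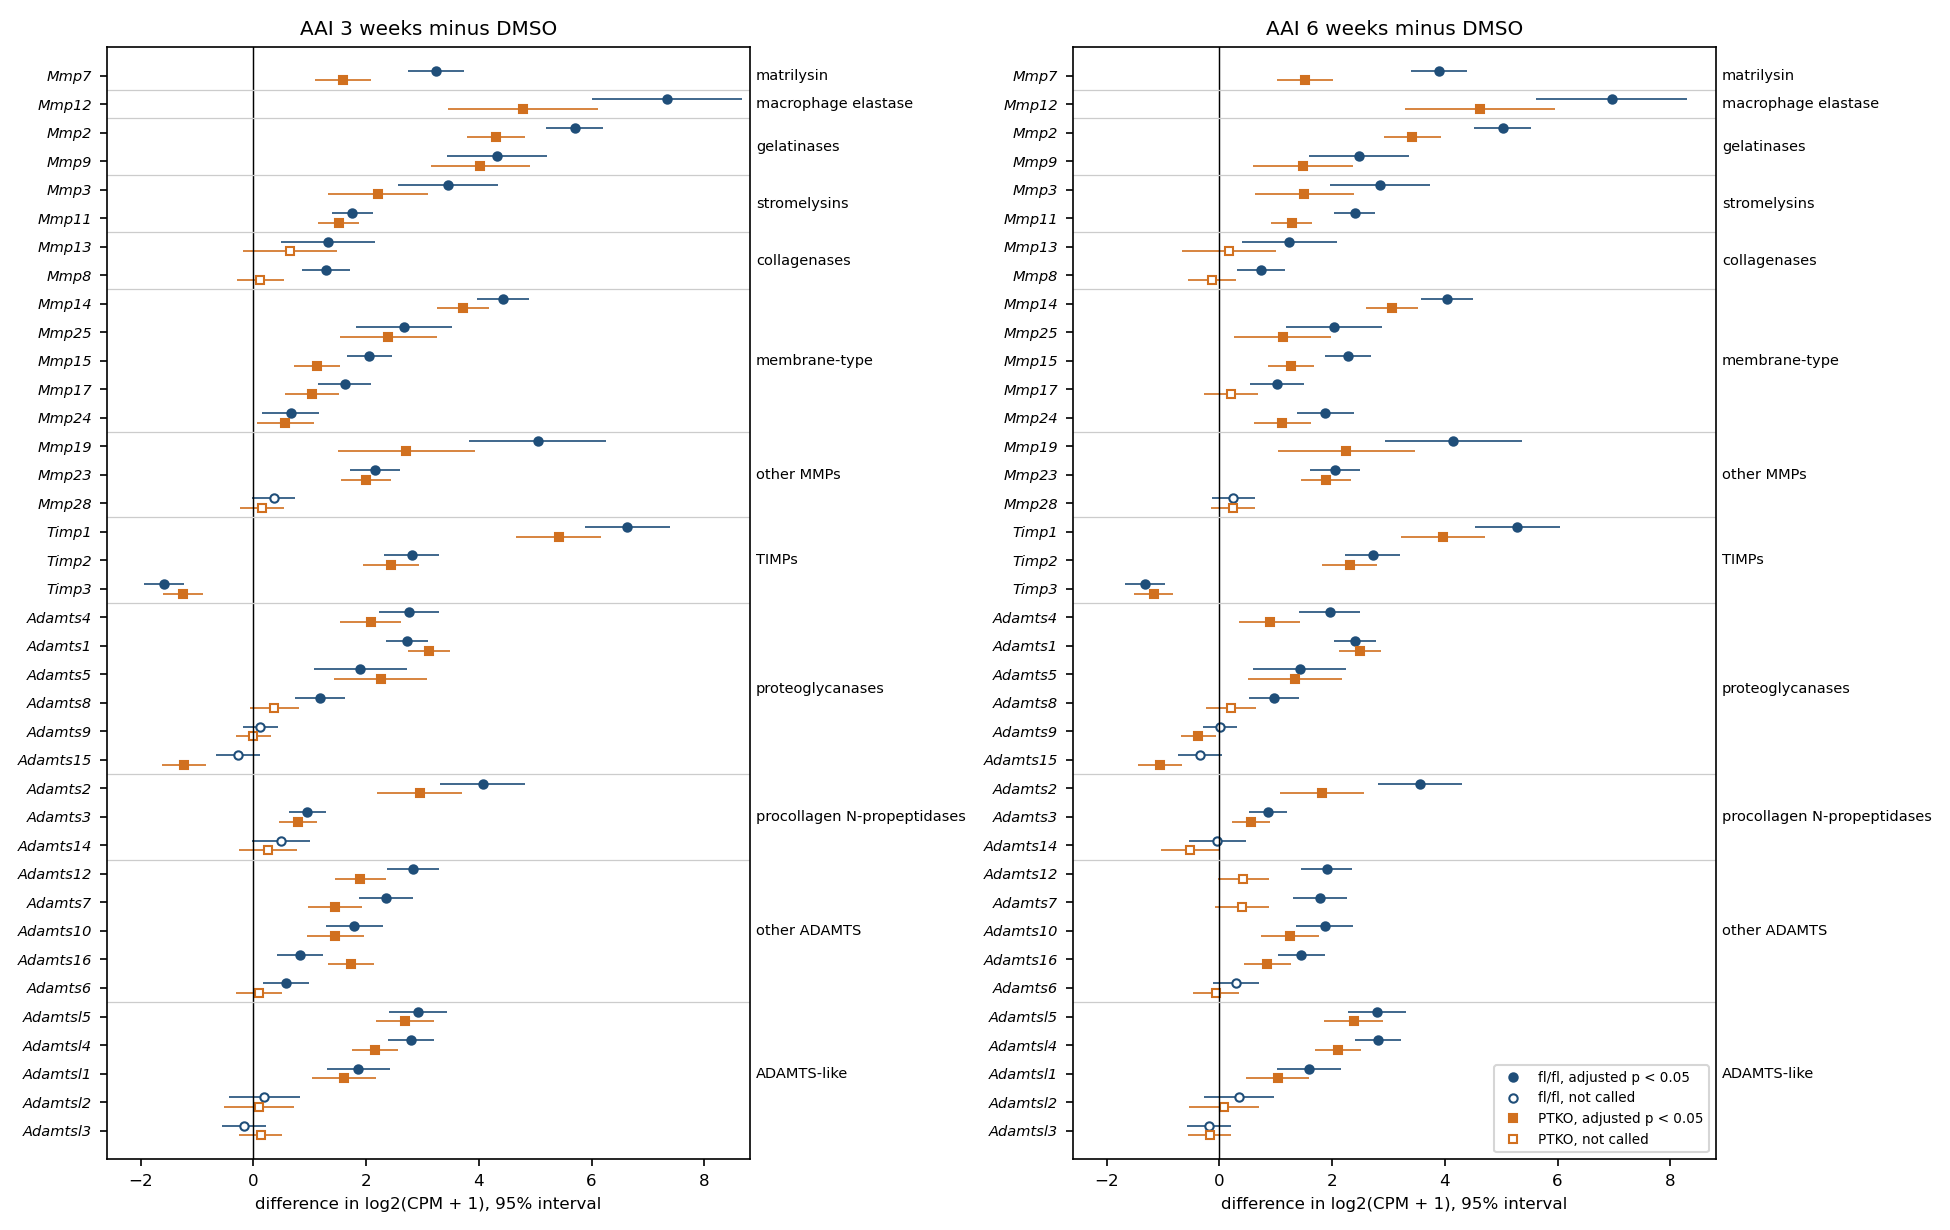
Difference in log2(CPM + 1) between AAI and DMSO kidneys for the 38 tested members, grouped by role, at 3 weeks (left) and 6 weeks (right). Circles are fl/fl and squares PTKO, bars are 95% intervals, and filled symbols have an adjusted p under 0.05. Mmp12 and Timp1 lie farthest to the right in fl/fl and Timp3 lies left of 0 in both genotypes.

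Mmp7 (ENSMUSG00000018623.9, chr9:7692090-7699585) encodes matrilysin, a small MMP without a hemopexin domain that epithelial cells make. It was close to undetected under DMSO, at 0, 0 and 0.106 CPM in fl/fl kidneys and 0, 0.0481 and 0 CPM in PTKO. At 3 weeks of AAI the libraries stood at 8.7, 9.99 and 7.68 CPM in fl/fl kidneys and 2.69, 2.02 and 1.54 CPM in PTKO. By 6 weeks the libraries held 17.8, 15.4 and 10.7 CPM in fl/fl kidneys and 1.45, 3.52 and 1.23 CPM in PTKO. Every AAI library was above every DMSO library, and every fl/fl AAI library was above every PTKO AAI library at either time. The DMSO groups held 2 reads (fl/fl) and 1 read (PTKO) in all, so the ratio of pooled levels is loosely bounded. It was 241 at 3 weeks in fl/fl (95% counting interval 66.5 to 2000) and 124 in PTKO (21.9 to 4920), and intervals of this kind cover counting error only.

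Mmp7 rose in both genotypes, by 3.24 ± 0.23, adjusted p = 5.55e-09 (log2 estimate ± SE) in fl/fl and 1.59 ± 0.23, adjusted p = 1.86e-05 in PTKO at 3 weeks. PTKO kidneys had less Mmp7 than fl/fl kidneys after AAI, with a difference of -1.68 ± 0.23, adjusted p = 0.0015 at 3 weeks and -2.40 ± 0.23, adjusted p = 3.6e-05 at 6 weeks. These genotype calls were kept in every alternative setting and with each library left out in turn, where the adjusted p reached at most 0.011 at 3 weeks and 0.000478 at 6 weeks. From 3 to 6 weeks the fl/fl estimate was 0.66, adjusted p = 0.0729, and in PTKO it was -0.07, adjusted p = 0.889, so neither passed the test. No AAI library exceeded 17.8 CPM, so on the plain CPM scale Mmp7 remained a low transcript beside Mmp12, Mmp2 and Mmp14.

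The AAI response of Mmp7 on the log2(CPM + 1) scale was also compared between genotypes. With 3 DMSO reads in all, this interaction is nearly the PTKO minus fl/fl difference after AAI given above, so it is not a second finding. The interaction was -1.65 ± 0.33, adjusted p = 0.0482 at 3 weeks and -2.37 ± 0.33, adjusted p = 0.0161 at 6 weeks, and Mmp7 was the 1 member called at each time. Of all genes 0.116% and 0.0411% had a lower interaction call at 3 and 6 weeks, and 0.164% and 0.0274% a higher one. Without adjustment, 15 members at 3 weeks and 20 at 6 weeks had a limma p under 0.05. The share of all genes at this unadjusted threshold was not counted, so these numbers cannot be set against the shares above. The call at 3 weeks was lost when any of 11 libraries was left out, among them PTKO 3-week replicate 2 (adjusted p = 0.138) and fl/fl 3-week replicate 3 (adjusted p = 0.125). At 6 weeks it was lost without fl/fl 6-week replicate 1 (adjusted p = 0.0773) or fl/fl DMSO replicate 1 (adjusted p = 0.0564). The edgeR quasi-likelihood test, which compares ratios and therefore rests on the 3 DMSO reads, gave an adjusted p of 0.872 and 0.812.

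**Figure D2:**
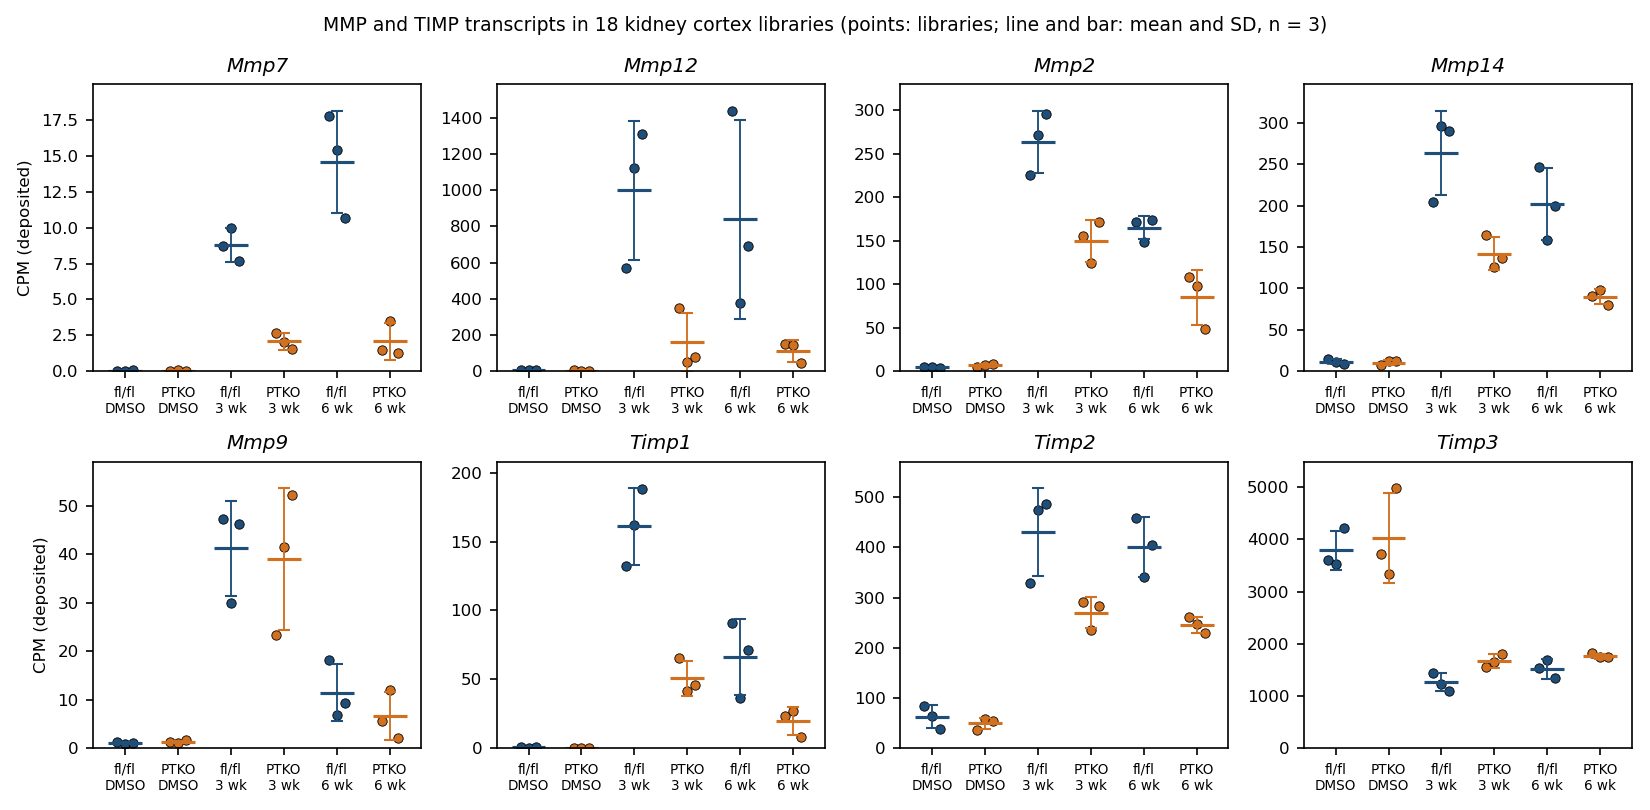
Deposited CPM of 8 members in each of the 18 libraries, by genotype (fl/fl blue, PTKO orange) and treatment. Points are libraries and lines with bars are the mean and SD of 3. Each panel has its own axis from 0. Mmp7, Mmp12, Mmp2, Mmp14, Timp1 and Timp2 are lower in all PTKO than in all fl/fl libraries at both AAI times, whereas Timp3 is higher in all of them and Mmp9 overlaps between genotypes.

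Mmp12 (ENSMUSG00000049723.14, chr9:7344381-7369499) encodes macrophage elastase, which degrades elastin. DMSO libraries held 5.45, 3.4 and 5.97 CPM in fl/fl kidneys and 3.85, 2.93 and 2.37 CPM in PTKO. At 3 weeks the values were 568, 1120 and 1310 CPM in fl/fl kidneys and 348, 48.8 and 77.3 CPM in PTKO. The 6-week values were 1440, 377 and 693 CPM in fl/fl kidneys and 147, 143 and 44 CPM in PTKO. The genotypes did not overlap at either AAI time, although libraries of 1 group differed several-fold, with PTKO 3-week replicate 1 far above its group. Among the members Mmp12 had the largest estimate in fl/fl, 7.34 ± 0.63, adjusted p = 3.52e-08 at 3 weeks, and in PTKO it rose by 4.79 ± 0.63, adjusted p = 5.93e-06. The PTKO minus fl/fl difference was -3.09 ± 0.63, adjusted p = 0.00741 at 3 weeks and -2.88 ± 0.63, adjusted p = 0.0101 at 6 weeks. Without PTKO 3-week replicate 2 the first had an adjusted p of 0.0531, and without fl/fl 6-week replicate 1 the second had 0.0659. Its interaction was -2.55, adjusted p = 0.145 at 3 weeks and -2.34, adjusted p = 0.266 at 6 weeks and was not called. Mmp12 overlaps the end of Mmp1b on the opposite strand. The kit keeps strand but the counting strand is not stated, and Mmp1b itself held at most 0.0511 CPM.

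Macrophage markers moved with Mmp12. The summed level of 7 markers (Cd68, Csf1r, C1qa, C1qb, Mrc1, Lyz2, Itgam) was 107 to 168 CPM under DMSO. At 3 weeks it was 4720 to 7890 CPM in fl/fl kidneys and 1520 to 3010 CPM in PTKO, and at 6 weeks 2720 to 4710 and 951 to 2170 CPM. All 7 markers rose after AAI in each genotype at each time, and PTKO had lower calls than fl/fl for 7 at 3 weeks and 5 at 6 weeks. Relative to this sum Mmp12 was 2.21% to 4.48% in DMSO libraries. It was 12%, 15.3% and 16.5% in fl/fl and 11.5%, 3.21% and 4.26% in PTKO at 3 weeks. At 6 weeks it was 30.7%, 13.9% and 16.4% in fl/fl and 8.14%, 6.56% and 4.62% in PTKO. The ratio was higher after AAI than under DMSO in every fl/fl AAI library, and the PTKO libraries were below the fl/fl libraries at both times, by a narrow margin for PTKO 3-week replicate 1. In bulk tissue fewer cells of a type and less RNA per cell cannot be told apart. The part of macrophage number in the Mmp12 values was not tested.

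The gelatinases cut denatured collagen and basement membrane collagen, and both rose after AAI. Mmp2 (ENSMUSG00000031740.8, chr8:92827291-92853420) stood at 226, 272 and 296 CPM in fl/fl kidneys and 155, 124 and 171 CPM in PTKO at 3 weeks, from 3.17 to 7.7 CPM under DMSO. The 6-week libraries held 171, 149 and 174 CPM in fl/fl kidneys and 108, 98 and 48.7 CPM in PTKO. PTKO libraries were below fl/fl libraries at both times (-0.82, adjusted p = 0.0347 at 3 weeks and -1.03, adjusted p = 0.0136 at 6 weeks). The 3-week call was lost without replicate 2 or 3 of either group (adjusted p up to 0.161) and the 6-week call without fl/fl 6-week replicate 1 (0.0641). Mmp9, which neutrophils, macrophages and tubule cells can make, stood at 47.3, 30 and 46.3 CPM in fl/fl kidneys and 23.3, 41.4 and 52.3 CPM in PTKO at 3 weeks, from 0.914 to 1.62 CPM under DMSO. Here the genotypes overlapped at 3 weeks, with a difference of -0.12 ± 0.42, adjusted p = 0.875. Mmp9 then fell from 3 to 6 weeks in fl/fl (-1.84, adjusted p = 0.0112) and in PTKO (-2.55, adjusted p = 0.00266), to 18.2, 6.82 and 9.36 CPM in fl/fl kidneys and 5.61, 12 and 2.2 CPM in PTKO. The fl/fl fall was lost without fl/fl 6-week replicate 2 (adjusted p = 0.0648) or fl/fl 3-week replicate 3 (adjusted p = 0.0535). Mmp2 fell between these times in PTKO (-0.88, adjusted p = 0.0299), a call lost without PTKO 3-week replicate 1 or 3 or PTKO 6-week replicate 3 (up to 0.106), and its fl/fl estimate was -0.67, adjusted p = 0.0737.

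Of the 6 membrane-type MMPs, 5 were tested and all 5 rose in fl/fl at both times, Mmp24 at 3 weeks no longer when fl/fl 3-week replicate 2 was left out. Mmp14 (ENSMUSG00000000957.11, chr14:54431612-54445364) encodes the transmembrane enzyme that, together with TIMP2, activates the MMP2 precursor at the cell surface. It stood at 14.5, 10.6 and 9.04 CPM in fl/fl kidneys and 6.79, 12 and 11.6 CPM in PTKO under DMSO, and at 205, 296 and 290 CPM in fl/fl kidneys and 165, 126 and 137 CPM in PTKO at 3 weeks. At the later time the values were 247, 159 and 200 CPM in fl/fl kidneys and 90.6, 98.4 and 80 CPM in PTKO. PTKO was lower after AAI, with no overlap of libraries (-0.87 ± 0.22, adjusted p = 0.0166 at 3 weeks and -1.15 ± 0.22, adjusted p = 0.00471 at 6 weeks). The 3-week call was lost without replicate 2 or 3 of either group (adjusted p up to 0.0873), and the 6-week call was kept in every alternative. Mmp15 rose from 3.92 ± 0.26 to 19.5 ± 1.7 CPM in fl/fl at 3 weeks and Mmp25, a leukocyte enzyme with a lipid anchor, from 0.304 ± 0.153 to 7.62 ± 3.14 CPM. Mmp17 rose in fl/fl at both times and in PTKO at 3 weeks (1.04, adjusted p = 0.000629), but its PTKO estimate at 6 weeks was 0.21, adjusted p = 0.426. Mmp24 was at or near 0 under DMSO and was the 1 membrane-type member that rose from 3 to 6 weeks in fl/fl, from 0.523, 0.844 and 0.48 to 4.49, 2.73 and 1.55 CPM (1.22, adjusted p = 0.00509). Its call in PTKO at 3 weeks (adjusted p = 0.0436) was lost with 11 of the 18 libraries left out singly, those of its own groups among them, and with median-of-ratios scaling (0.0533). Mmp16 stayed at or below 0.512 CPM.

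The stromelysins act on proteoglycans and activate other MMP precursors. Mmp3 stood at 5.6, 16.8 and 12.5 CPM in fl/fl kidneys and 4.2, 4.85 and 4.66 CPM in PTKO at 3 weeks, from at most 0.269 CPM under DMSO (3.45, adjusted p = 1.51e-06 and 2.21, adjusted p = 0.000199). In 6-week kidneys it measured 8.22, 5.37 and 6.73 CPM in fl/fl kidneys and 3.38, 5.47 and 0.409 CPM in PTKO. The genotype difference in Mmp3 was not called at either time (adjusted p = 0.0961 and 0.0676). Mmp10, a stromelysin of the same cluster, was too low to be tested but went from 0 reads in the 3 fl/fl DMSO libraries to 2.46, 0.985 and 1.18 CPM at 3 weeks (114 reads). The 95% counting interval of this ratio of pooled levels has 23.6 as its lower end and no upper end. In PTKO the 3-week libraries held 0.277, 0.661 and 0.486 CPM, all below the fl/fl libraries. Mmp11, whose precursor is activated by furin before secretion, stood at 4.78, 3.71 and 3.91 CPM under DMSO in fl/fl, 12.2, 17.3 and 20.1 CPM at 3 weeks and 23.3, 31 and 24.3 CPM at 6 weeks. The PTKO libraries of Mmp11 held 12.2, 12.1 and 11.1 CPM at 3 weeks and 11.7, 9.73 and 8.59 CPM at 6 weeks, so the genotypes overlapped at 3 weeks and separated at 6 weeks (-1.30 ± 0.17, adjusted p = 0.000468). Mmp11 rose from 3 to 6 weeks in fl/fl (0.65, adjusted p = 0.023), which was lost without fl/fl 6-week replicate 2 (adjusted p = 0.117) or fl/fl 3-week replicate 1 (0.0791).

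Of the 4 collagenase genes, Mmp1a was at 0 throughout, Mmp1b was near 0, and Mmp8 and Mmp13 were tested. Both rose in fl/fl at both times and neither was called in PTKO. Mmp8, known as neutrophil collagenase, stood at 1.72, 3.42 and 1.18 CPM in fl/fl kidneys and 0.712, 0.478 and 0.365 CPM in PTKO at 3 weeks, against 0.102 to 0.499 CPM under DMSO. It was lower in PTKO at 3 weeks (-0.97, adjusted p = 0.00765) and 6 weeks (-0.69, adjusted p = 0.0319), and its highest value was in fl/fl 3-week replicate 2. Mmp8 was tested only because fl/fl AAI libraries passed 1 CPM, and no DMSO or PTKO library held more than 0.712 CPM. The 3-week call was lost when the compared groups were fitted alone (adjusted p = 0.0515). The 6-week call was lost without fl/fl replicate 1 (adjusted p = 0.149) or replicate 3 or any PTKO replicate of that time. The library with most Mmp8 also had the highest sum of 8 neutrophil markers, 29.1 CPM against 0.363 to 6.19 CPM under DMSO, while the granule genes Elane, Mpo and Camp were at or below 0.149 CPM in all libraries. The part of neutrophils in the Mmp8 values was not tested. Mmp13 stood at 7.43, 7.17 and 13.9 CPM in fl/fl kidneys and 9.54, 4.04 and 4.13 CPM in PTKO at 3 weeks, with overlapping genotypes and 2.13 to 4.02 CPM under DMSO. Its 6-week call in fl/fl (adjusted p = 0.0103) was lost without fl/fl 6-week replicate 1 (adjusted p = 0.0656) and with median-of-ratios scaling (0.0666).

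**Figure D3:**
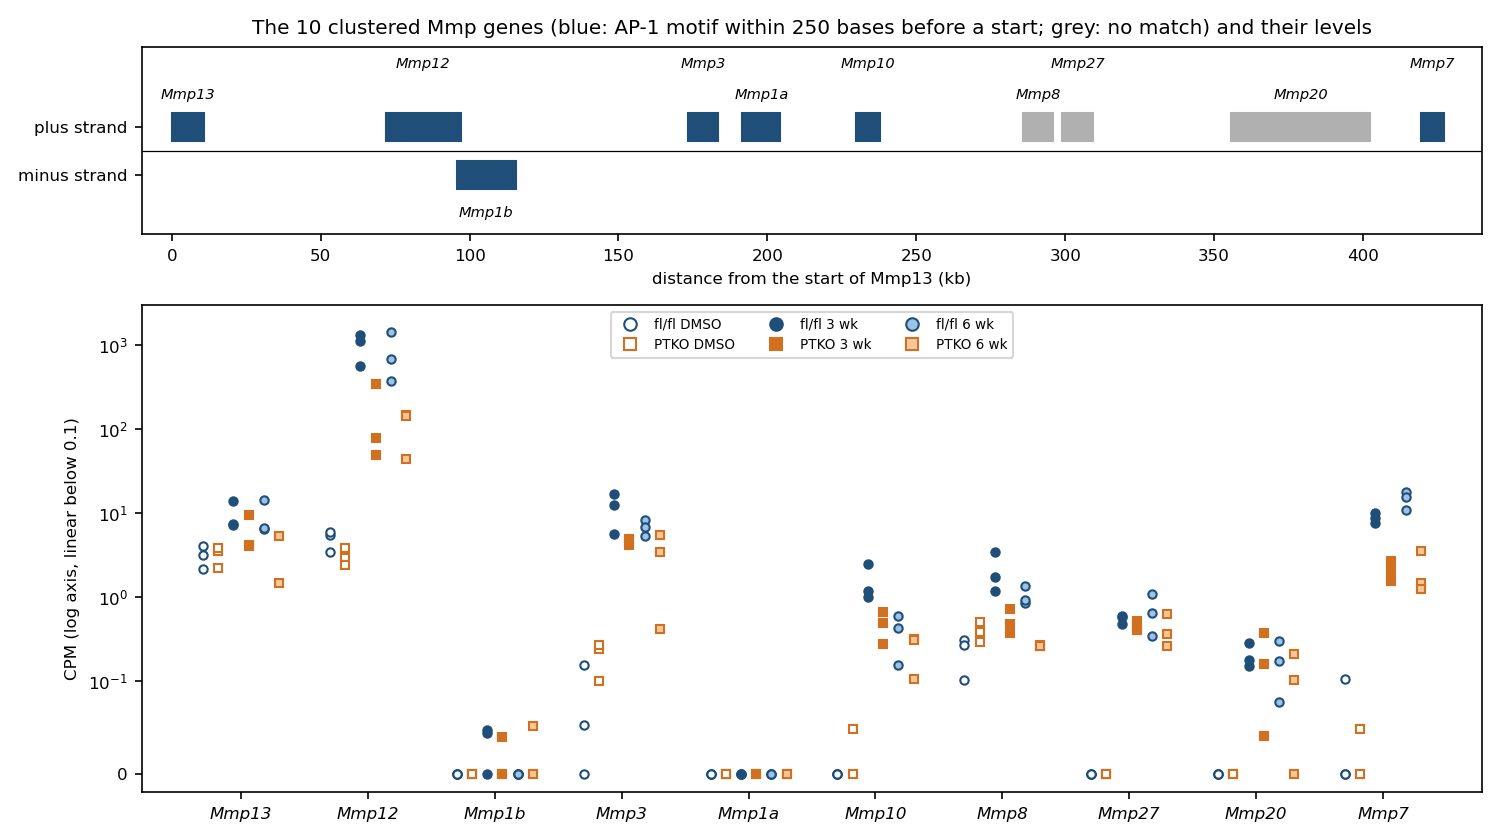
The 10 clustered MMP genes drawn to scale by distance from the start of Mmp13 in kb and by strand (top), and their CPM in every library (bottom, log axis that is linear below 0.1). Open symbols are DMSO, dark symbols 3 weeks and pale symbols 6 weeks, with circles for fl/fl and squares for PTKO. Mmp12 reaches 1440 CPM, Mmp1a is at 0 in all libraries, and genes with the AP-1 motif are found both among the high and among the undetected genes.

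Of the other MMPs, Mmp19 and Mmp23 rose in both genotypes at both times, and Mmp28 was not called in any comparison. Mmp19, which cuts basement membrane proteins, stood at 21.4, 75.7 and 71.2 CPM in fl/fl kidneys and 15.6, 5.81 and 7.98 CPM in PTKO at 3 weeks, from 0.0528 to 1.27 CPM under DMSO. By 6 weeks the libraries held 71.6, 13.7 and 17.2 CPM in fl/fl kidneys and 9.35, 7.36 and 3.48 CPM in PTKO, so fl/fl replicate 1 was far above the other libraries. Mmp19 was lower in PTKO at 3 weeks (-2.31, adjusted p = 0.017) and 6 weeks (-1.89, adjusted p = 0.0376), and each of these calls was lost when 1 library was left out (replicate 2 or 3 of either group at 3 weeks, any but fl/fl replicate 2 at 6 weeks, adjusted p up to 0.0931 and 0.21). Mmp23 was 24.8 ± 4.87 CPM in fl/fl kidneys and 13.2 ± 2.02 CPM in PTKO at 3 weeks, from 4.9 ± 1.96 and 2.55 ± 0.467 CPM, and was lower in PTKO at both AAI times (-0.85, adjusted p = 0.0158 and -0.84, adjusted p = 0.017). The DMSO libraries of Mmp23 (7.14, 4.01 and 3.54 CPM in fl/fl kidneys and 2.1, 3.03 and 2.53 CPM in PTKO) did not overlap either, with a like estimate that was not called (-0.69, adjusted p = 0.334). The AAI calls were lost without fl/fl replicate 3 at either time (0.0954 and 0.0712), PTKO replicate 2 at 3 weeks (0.0904) or fl/fl replicate 1 at 6 weeks (0.0893). The 3 untested genes Mmp20, Mmp21 and Mmp27 stayed at or below 0.367, 0.0999 and 1.08 CPM. Mmp27 and Mmp20 were at 0 in all 6 DMSO libraries and had 39 and 14 reads in the fl/fl 3-week group, so that the ratio to fl/fl DMSO has a 95% counting interval with a lower end of 7.82 and 2.57.

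The TIMPs changed in opposite directions. Timp1 (ENSMUSG00000001131.11, chrX:20870166-20874735), a secreted inhibitor, stood at 0.727, 0.356 and 0.793 CPM in fl/fl kidneys and 0.0999, 0.337 and 0.162 CPM in PTKO under DMSO. At 3 weeks the values were 132, 162 and 188 CPM in fl/fl kidneys and 65.2, 41.5 and 45.9 CPM in PTKO, and at 6 weeks 90.8, 36.7 and 71.1 CPM in fl/fl kidneys and 23.7, 27.1 and 8.39 CPM in PTKO. The rise was 6.63 ± 0.36, adjusted p = 3.04e-10 in fl/fl and 5.41 ± 0.36, adjusted p = 4.84e-09 in PTKO at 3 weeks. PTKO libraries were all below fl/fl libraries at both times (-1.65 ± 0.36, adjusted p = 0.0091 and -1.75 ± 0.36, adjusted p = 0.0067), and the 3-week call was lost without PTKO 3-week replicate 2 (adjusted p = 0.0569) or fl/fl 3-week replicate 3 (0.0564). Timp1 fell from 3 to 6 weeks in fl/fl (-1.35, adjusted p = 0.0232) and PTKO (-1.45, adjusted p = 0.0189), calls lost without fl/fl 6-week replicate 2 or fl/fl 3-week replicate 2 or 3 (adjusted p up to 0.126), and without PTKO 6-week replicate 3 or PTKO 3-week replicate 1 or 3 (up to 0.0875).

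Timp2 (ENSMUSG00000017466.9, chr11:118301069-118355740), which bridges MMP14 and the MMP2 precursor, stood at 84.5, 64.4 and 39.2 CPM in fl/fl kidneys and 36.5, 58.5 and 53.9 CPM in PTKO under DMSO. It stood at 330, 475 and 487 CPM in fl/fl kidneys and 292, 235 and 283 CPM in PTKO at 3 weeks and at 459, 341 and 404 CPM in fl/fl kidneys and 261, 248 and 229 CPM in PTKO at 6 weeks. Timp2 rose in all 4 AAI comparisons (2.31 to 2.81). The PTKO libraries lay below the fl/fl libraries at both times, but the difference was not called (-0.66, adjusted p = 0.0701 at 3 weeks and -0.70, adjusted p = 0.0536 at 6 weeks). Timp3 (ENSMUSG00000020044.13, chr10:86300372-86349506), the matrix-bound inhibitor, stood at 3610, 3540 and 4220 CPM in fl/fl kidneys and 3730, 3340 and 4990 CPM in PTKO under DMSO. At 3 weeks it stood at 1450, 1240 and 1100 CPM in fl/fl kidneys and 1550, 1660 and 1810 CPM in PTKO, and at 6 weeks at 1530, 1700 and 1340 CPM in fl/fl kidneys and 1820, 1740 and 1740 CPM in PTKO. Every AAI library was below every DMSO library. Timp3 fell by 1.59 on the log2 scale in fl/fl (adjusted p = 3.34e-07) and by 1.25 in PTKO (adjusted p = 7.16e-06) at 3 weeks, and its genotype difference was not called (0.41, adjusted p = 0.113 at 3 weeks and 0.22, adjusted p = 0.392 at 6 weeks), although each PTKO library was above each fl/fl library of its time.

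Timp3 made up 97.7% to 99.1% of TIMP reads in the DMSO libraries. Its share was 62.1% to 75.8% in fl/fl and 81.3% to 85.7% in PTKO at 3 weeks, and 73.6% to 81.9% in fl/fl and 86.3% to 88% in PTKO at 6 weeks, so the genotypes did not overlap after AAI. Per kb of exon (CPM divided by the length of all annotated exons of the gene), Timp3 had the highest mean of the 51 members in 5 of the 6 groups, with 465 ± 45.9 CPM per kb in fl/fl DMSO kidneys against 16.1 ± 5.83 for Timp2, the next. In fl/fl at 3 weeks the order of mean levels per kb was Timp1 (181 ± 31.5), Timp3 (156 ± 21.4), Mmp12 (138 ± 53.1), Timp2 (111 ± 22.5), Mmp2 (78.3 ± 10.6), Adamts1 (49.8 ± 2.23) and Mmp14 (44.3 ± 8.56), and each neighbour among the first 4 differs by less than the larger SD. In PTKO at 3 weeks Timp3 (205 ± 16.1 CPM per kb) stood above Timp2 (69.3 ± 7.8), Adamts1 (58.8 ± 8.69) and Timp1 (57.2 ± 14.2). Timp1 and Timp3 lie within Syn1 and Syn3 on the opposite strand. Timp4 was not tested. It was highest in PTKO 6-week replicate 2 (1.21 CPM) and PTKO DMSO replicate 2 (0.577 CPM), the libraries with adipocyte markers.

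Proteoglycan-cutting ADAMTS genes split by direction. Adamts1, which cuts versican, stood at 266, 274 and 251 CPM in fl/fl kidneys and 344, 332 and 259 CPM in PTKO at 3 weeks, from 30.6 to 43.2 CPM under DMSO, and the genotypes overlapped (difference 0.23, 95% interval -0.14 to 0.60). It rose by 2.73, adjusted p = 1.74e-09 in fl/fl and 3.11, adjusted p = 1.11e-09 in PTKO. Adamts4 and Adamts5, the main aggrecan-cutting enzymes, rose in both genotypes at both times. At 6 weeks the Adamts5 calls were lost with edgeR (adjusted p = 0.08 in fl/fl and 0.0523 in PTKO), and the Adamts4 call in PTKO with median-of-ratios scaling (0.0544) and without PTKO DMSO replicate 2 and both 6-week replicates 2 (0.058). Adamts4 went from 1.27 ± 0.444 to 14.4 ± 3.58 CPM in fl/fl and from 2.06 ± 0.935 to 11.5 ± 0.972 CPM in PTKO at 3 weeks, and fell from 3 to 6 weeks in PTKO (-1.19, adjusted p = 0.00967) and in fl/fl (-0.80, adjusted p = 0.0474). The fl/fl call was lost with any of 13 single libraries left out, among them fl/fl 6-week replicate 2 (adjusted p = 0.183), and in all other settings but the filter at 5 CPM. Adamts5 went from 23.3 ± 14.3 to 77.5 ± 4.94 CPM in fl/fl and from 18.1 ± 8.62 to 83.1 ± 3.88 CPM in PTKO at 3 weeks. Adamts8 rose in fl/fl (1.18, adjusted p = 8.41e-05 at 3 weeks), with a PTKO estimate of 0.37, adjusted p = 0.12.

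Adamts15 and Adamts9, which also cut versican or aggrecan, were not called higher. Adamts15 stood at 18.5, 23.9 and 21.5 CPM in fl/fl kidneys and 24.9, 22.7 and 24.1 CPM in PTKO under DMSO. At 3 weeks it stood at 14.3, 22.6 and 15.9 CPM in fl/fl kidneys and 8.51, 9 and 11.3 CPM in PTKO. It fell in PTKO at 3 weeks (-1.24, adjusted p = 2.19e-05) and 6 weeks (-1.06, adjusted p = 0.000149). The fl/fl estimates of Adamts15 were -0.28, adjusted p = 0.177 and -0.35, adjusted p = 0.102, and with median-of-ratios scaling these became calls (adjusted p = 0.00288 and 0.00153). PTKO was below fl/fl at 3 weeks (-0.79, adjusted p = 0.0134), and this was lost without fl/fl 3-week replicate 2 (0.0597) or PTKO 3-week replicate 2 (0.0671). Adamts9 ranged from 16.6 to 21.3 CPM under DMSO and from 15 to 23.1 CPM after AAI. It fell in PTKO at 6 weeks (-0.37, adjusted p = 0.0336), a call lost when any of 5 libraries of those groups was left out, among them PTKO 6-week replicate 2 (adjusted p = 0.0726). The sign of its fl/fl estimates (0.12 and 0.01) turned to -0.32 and -0.45 with median-of-ratios scaling.

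Adamts2, the main enzyme that removes the amino-terminal propeptide of fibrillar procollagens, stood at 59.9, 82.9 and 93 CPM in fl/fl kidneys and 37.9, 30.2 and 35.2 CPM in PTKO at 3 weeks, from 2.8 to 5.23 CPM under DMSO. The 6-week libraries held 71.1, 44.7 and 49.4 CPM in fl/fl kidneys and 21.2, 24.6 and 6.39 CPM in PTKO, with PTKO replicate 3 the lowest AAI library. The genotypes did not overlap at either time (-1.15 ± 0.35, adjusted p = 0.0414 and -1.77 ± 0.35, adjusted p = 0.00642). The 3-week call of Adamts2 was lost with any of 8 libraries left out, among them fl/fl 3-week replicate 3 (adjusted p = 0.174) and PTKO 3-week replicate 2 (0.154), and with median-of-ratios scaling (0.0534). Adamts3 rose in each AAI comparison by 0.56 to 0.96, though its PTKO call at 6 weeks was lost with median-of-ratios scaling (adjusted p = 0.0728) and edgeR (0.0587), and Adamts14 rose in none. Collagen genes Col1a1 and Col3a1, whose products the propeptidases trim, rose by 5.41 and 5.66 in fl/fl at 3 weeks. In PTKO they were lower than in fl/fl at 6 weeks (-1.99, adjusted p = 0.0181 and -2.01, adjusted p = 0.0315).

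Adamts7 and Adamts12, which cut cartilage oligomeric matrix protein, were lower in PTKO at both AAI times. Adamts7 stood at 23.2, 31.4 and 31 CPM in fl/fl kidneys and 15, 12.3 and 16.4 CPM in PTKO at 3 weeks, and at 20.9, 17.7 and 17.6 CPM in fl/fl kidneys and 8.2, 8.15 and 4.04 CPM in PTKO at 6 weeks, from 3.35 to 6.11 CPM under DMSO. Adamts12 stood at 9.78, 11.9 and 11.8 CPM in fl/fl kidneys and 5.19, 4.41 and 5.39 CPM in PTKO at 3 weeks, and at 6.83, 4.61 and 4.87 CPM in fl/fl kidneys and 1.25, 1.95 and 0.511 CPM in PTKO at 6 weeks, from 0.423 to 1.09 CPM under DMSO. The genotypes did not overlap at either time for either gene. At 6 weeks the PTKO minus fl/fl difference was -1.39 ± 0.23, adjusted p = 0.00193 for Adamts7 and -1.56 ± 0.22, adjusted p = 0.000685 for Adamts12, and both calls were kept with each library left out. Both were lost when the compared groups were fitted alone (limma adjusted p = 0.0557 and 0.0515). At 3 weeks the difference was -0.92, adjusted p = 0.0162 and -1.02, adjusted p = 0.00835, lost without PTKO 3-week replicate 2 (0.089 and 0.054) and, for Adamts7, fl/fl 3-week replicate 2 or 3. The 3-week Adamts12 call was also lost with a pseudocount of 0.1 (limma adjusted p = 0.0562). Neither gene was called against DMSO in PTKO at 6 weeks (adjusted p = 0.127 and 0.0923), and without PTKO 6-week replicate 3 both were called higher.

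Adamts16, linked to kidney and gonad development, was lower in PTKO at 6 weeks. It stood at 2.85, 3.45 and 3.96 CPM in fl/fl kidneys and 2, 1.97 and 1.19 CPM in PTKO under DMSO. At 3 weeks the libraries held 6.08, 7.69 and 6.63 CPM in fl/fl kidneys and 9.7, 8.89 and 5.79 CPM in PTKO, and at 6 weeks 10.1, 9.64 and 13.8 CPM in fl/fl kidneys and 4.21, 3.16 and 4.3 CPM in PTKO. The genotypes did not overlap under DMSO, where the difference was not called (-0.71, adjusted p = 0.249), overlapped at 3 weeks (0.21, adjusted p = 0.511) and stood apart at 6 weeks (-1.31 ± 0.19, adjusted p = 0.00102). From 3 to 6 weeks it rose in fl/fl (0.63, adjusted p = 0.0416) and fell in PTKO (-0.88, adjusted p = 0.0108). The difference between these slopes was not tested as such. The fl/fl call was lost with any of 7 single libraries left out, among them fl/fl 6-week replicate 3 (adjusted p = 0.136), and the PTKO call without PTKO 3-week replicate 1 (adjusted p = 0.0593). Adamts10, a fibrillin-associated member, was lower in PTKO at 6 weeks (-0.83, adjusted p = 0.0319), which was lost without fl/fl or PTKO 6-week replicate 1 (0.11 and 0.0844), fl/fl replicate 3 or PTKO replicate 2. The Adamts10 call was also lost with median-of-ratios scaling (limma adjusted p = 0.056) and with edgeR (0.0621). It was lost too without PTKO DMSO replicate 2 and both 6-week replicates 2 (limma adjusted p = 0.0699). Adamts6 rose in fl/fl at 3 weeks (0.58, adjusted p = 0.0113), which was lost with median-of-ratios scaling and without fl/fl DMSO replicate 3 or fl/fl 3-week replicate 1. Adamts13, Adamts17, Adamts18 and Adamts19 did not reach 1 CPM in any library. Of the ADAMTS-like genes, Adamtsl1, Adamtsl4 and Adamtsl5 rose in all 4 AAI comparisons (1.03 to 2.92), and Adamtsl2 and Adamtsl3 were not called in any.

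Between the genotypes 0 members were called under DMSO by limma (edgeR also called 0), against 0.192% of all genes higher and 0.0959% lower in PTKO. At an unadjusted limma p under 0.05 there were 5 members, and the share of all genes at that threshold was not counted. The DMSO libraries of the genotypes did not overlap in 4 members lower in PTKO (Mmp23, Timp1, Adamts16 and Adamtsl3) and 1 higher (Mmp15), against 9.44% and 7.04% of all genes. After AAI every genotype call among the members was in 1 direction. At 3 weeks 13 of 38 were lower in PTKO and 0 higher (median -0.48), against 8% of all genes lower and 6.22% higher (median -0.04). All PTKO libraries were below all fl/fl libraries in 21 of the 38 and above in 1 (Timp3), against 19.3% and 14.5% of all genes. At 6 weeks 16 were lower and 0 higher (median -0.74), against 11.8% lower and 3.27% higher (median -0.11). The libraries did not overlap in 24 members lower and 1 higher (Timp3), against 21.1% and 6.59% of all genes. With median-of-ratios scaling the members lower were 11 and 12, and all genes split into 6.57% lower and 6.8% higher at 3 weeks and 6.21% lower and 5.55% higher at 6 weeks. The 18 members called lower in PTKO at either time or in an interaction were 10 MMPs (Mmp2, Mmp7, Mmp8, Mmp11, Mmp12, Mmp14, Mmp17, Mmp19, Mmp23, Mmp24), Timp1, and 7 ADAMTS genes (Adamts2, Adamts7, Adamts8, Adamts10, Adamts12, Adamts15, Adamts16). Of these, Mmp8 is counted at both times although it passed the filter through fl/fl AAI libraries only.

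The number of these calls depended on single libraries. Calls among all genes were not counted in the reduced fits below, so the losses cannot be set against a share of all genes. Without PTKO 3-week replicate 2 the 13 calls at 3 weeks became 2, without fl/fl 3-week replicate 3 they became 5, without fl/fl 3-week replicate 2 they became 6, and without PTKO 3-week replicate 3 they became 8. Mmp7 and Mmp8 kept their call with each library left out. These fits kept the genes that passed the filter with all libraries, and Mmp8 passed through fl/fl AAI libraries only. The Mmp8 call was lost when the 3-week groups were fitted alone (limma adjusted p = 0.0515). At 6 weeks 8 of 16 calls were left without fl/fl 6-week replicate 1. Adamts2, Adamts7, Adamts12, Adamts16, Mmp7, Mmp11, Mmp14 and Timp1 kept theirs with each library left out. The 3-week call of Adamts8 was lost with any of 9 libraries left out, 4 of them of the compared groups (replicates 2 and 3 of each), and in 7 other settings. At 6 weeks the Mmp24 call was lost with any of 3 libraries left out (fl/fl replicate 1, PTKO replicates 1 and 2) and in 6 other settings, and the Mmp17 call with any of 3 (fl/fl replicates 1 and 3, PTKO replicate 3) and in 2 other settings. When the 6-week groups were fitted alone, 5 calls were left, and those of Adamts2, Adamts7, Adamts12 and Timp1 were among the lost. Without the 3 libraries that stood apart (PTKO DMSO replicate 2, PTKO 6-week replicate 2 and fl/fl 6-week replicate 2, the shallowest) 20 members were lower at 6 weeks, 13 of them among the 16.

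**Figure D4:**
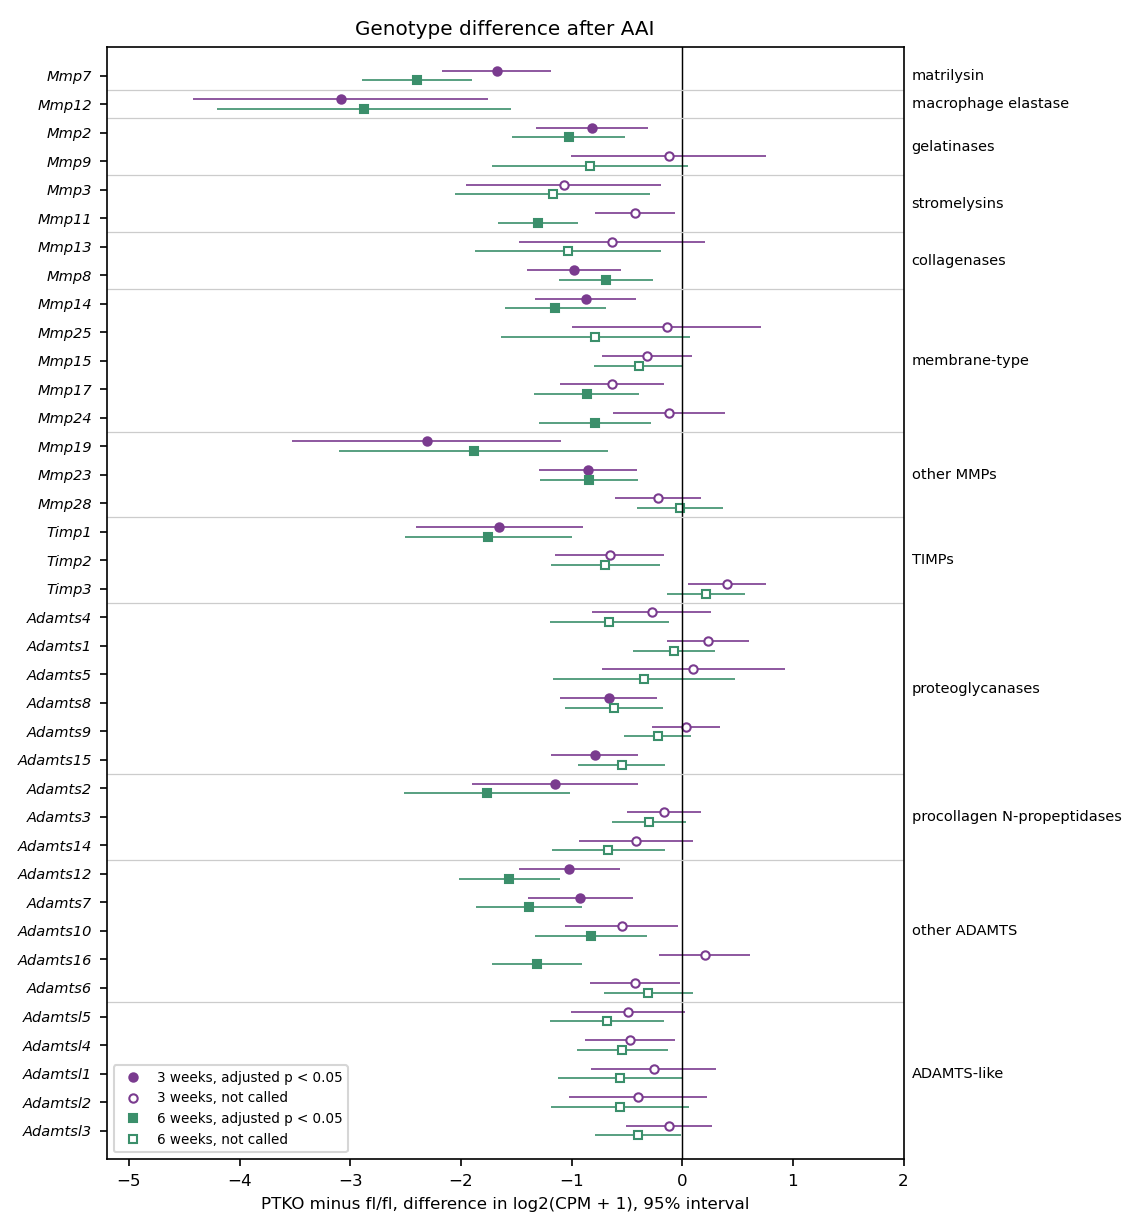
PTKO minus fl/fl difference in log2(CPM + 1) after AAI for the 38 tested members, by role. Circles are 3 weeks and squares 6 weeks, bars are 95% intervals and filled symbols have an adjusted p under 0.05. All 13 filled circles and all 16 filled squares lie left of 0.

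Sums of markers of other cell types differed in part with genotype. The sum of 6 fibroblast markers was 685 to 761 CPM in fl/fl kidneys and 394 to 564 CPM in PTKO at 3 weeks, and 423 to 533 and 155 to 296 CPM at 6 weeks, with 1 of 6 markers called lower in PTKO at 3 weeks and 2 of 6 at 6 weeks. The sum of proximal tubule markers was 2280 to 3490 CPM in fl/fl kidneys and 4230 to 5730 CPM in PTKO at 3 weeks, and 2970 to 4570 and 5150 to 7090 CPM at 6 weeks, with 6 of 7 markers called higher in PTKO at 3 weeks and 3 of 7 at 6 weeks. The 4 injured tubule markers summed to 1590 to 1660 CPM in fl/fl kidneys and 1050 to 1460 CPM in PTKO at 3 weeks (1 of 4 called lower), and overlapped at 6 weeks (656 to 1200 and 672 to 876 CPM, 0 of 4 called). Of the 12 AAI libraries PTKO 6-week replicate 3 was the lowest in macrophage (951 CPM) and fibroblast (155 CPM) markers and in 24 of the 51 members, among them Mmp2, Mmp7, Mmp12, Mmp14, Timp1, Timp2 and Adamts2. That library also had the highest thick limb (12800 CPM, next 7620 CPM) and collecting duct (895 CPM, next 551 CPM) marker sums of the 18 libraries. It was not among the 3 libraries that were left out together. The part of cell composition in the genotype differences was not tested.

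Between 3 and 6 weeks fewer members were called than against DMSO. In fl/fl 3 rose (Mmp11, Mmp24, Adamts16) and 4 fell (Mmp9, Timp1, Adamts4, Adamts12), against 7.16% and 6.07% of all genes. In PTKO 0 rose and 10 fell (Mmp2, Mmp9, Mmp17, Timp1, Adamts1, Adamts4, Adamts7, Adamts12, Adamts14, Adamts16), against 2.92% and 8.26% of all genes. The PTKO call of Adamts14 was lost with any of 15 libraries left out singly and in 6 other settings. Those of Adamts1 and Mmp17 were each lost with any of 4 libraries, and in 3 and 2 other settings. Without fl/fl 6-week replicate 2, the shallowest library, 1 of the 7 fl/fl calls was left (Mmp24). Without fl/fl 3-week replicate 3, 2 were left, and without fl/fl 3-week replicate 1 or 2, 4. Without PTKO 6-week replicate 3 the fl/fl falls were 7. Of the 10 PTKO calls 4 were left without PTKO 3-week replicate 1, 6 without PTKO 3-week replicate 3 or PTKO 6-week replicate 3, and 2 (Adamts4 and Adamts12) when the PTKO groups were fitted alone. Calls among all genes were not counted in these reduced fits either. The 3-week and 6-week kidneys are different groups of libraries, and no label ties them to the same animals.

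Other pathway genes (proteases, activators, inhibitors and substrates of the matrix) were taken from a list of 42, of which 38 were tested. In fl/fl at 3 weeks 27 rose and 6 fell (median 1.93), against 58% and 18.2% of all tested genes. In PTKO 24 rose and 6 fell (median 1.08), against 57.2% and 13.9%. PTKO minus fl/fl had 12 lower and 3 higher calls at 3 weeks, against 8% and 6.22% of all genes. At 6 weeks it had 18 lower and 0 higher, against 11.8% and 3.27%. The list was chosen with earlier results of these data known, so these counts are a description. In the plasminogen system, which turns plasminogen into the protease plasmin, the urokinase receptor gene Plaur rose by 3.88, adjusted p = 1.99e-08 in fl/fl and 3.15, adjusted p = 3.6e-07 in PTKO at 3 weeks. Serpinf2, which encodes the plasmin inhibitor, fell in both genotypes (-3.48 and -1.90) and was higher in PTKO than in fl/fl at 3 weeks (1.52, adjusted p = 0.0155). Among other metalloproteases Adam8, found on leukocytes, rose by 6.04 in fl/fl and 4.71 in PTKO and was lower in PTKO at 3 weeks (-1.33, adjusted p = 0.00984). Bmp1, the procollagen C-proteinase, rose by 3.48 and 3.01 and was lower in PTKO at 3 weeks (-0.72, adjusted p = 0.0367).

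Mep1a and Mep1b, which encode the meprins of the tubule brush border, fell after AAI in fl/fl at 3 weeks (-3.20 and -4.92). Mep1a stood at 2530, 2580 and 2720 CPM in fl/fl DMSO libraries, 231, 390 and 253 CPM in fl/fl kidneys and 806, 1220 and 652 CPM in PTKO at 3 weeks. Mep1a also fell in PTKO (-1.52, adjusted p = 0.00215) and was higher in PTKO than in fl/fl at 3 weeks (1.60, adjusted p = 0.0142), as was Mep1b (3.09, adjusted p = 0.00832). At 6 weeks neither was called by genotype (adjusted p = 0.954 and 0.918). Furin and Pcsk5, convertases that activate membrane-type MMPs and several ADAMTS precursors, fell by 0.24 to 0.81 on the log2 scale across the 4 AAI comparisons. Of the substrates, Vcan (versican) rose by 4.26 in fl/fl and 3.07 in PTKO at 3 weeks, and Fn1 (fibronectin) by 5.32 and 4.13. Both were lower in PTKO at 3 weeks (-0.86, adjusted p = 0.00766 and -1.45, adjusted p = 0.0165).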

How the data were processed

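The deposited table holds CPM, which the authors made from total RNA libraries (a stranded kit, per the labels' protocols). The submitters' processing notes name bcl2fastq 2.19, kallisto and mm10, and the counting strand is not given in the sources used here. Every value lay within 0.01 of a whole read after scaling (100% of values), so reads were recovered for edgeR (4.0.16), used as an alternative. A value of 0 allows up to 3 reads of that library, counting error only. The 14604 genes that reached 1 CPM in 3 or more libraries were fitted in limma (3.58.1, R 4.3.3) on log2(CPM + 1), computed here from the deposited CPM. The model had 6 group means over 18 libraries, with 12 degrees of freedom left for the residual, and a trended prior variance. Tests were two-sided, in 11 comparisons. P-values were adjusted by Benjamini-Hochberg over all genes tested. Groups came from the sample labels.

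Members and lists were chosen with earlier results of these data known. Values are given for Mmp7, Mmp12, Mmp2, Mmp14, Timp1, Timp2 and Timp3, for up to 8 members called by genotype or interaction with the smallest adjusted p, for up to 3 called members per role group with the largest change in fl/fl at 3 weeks, and for members that fell. Other members named beyond this were chosen after their values were seen. Marker lists were for macrophages (7 of 8 genes in the table), neutrophils (8 of 9), fibroblasts, proximal tubule, injured tubule, endothelium, podocytes, adipocytes, collecting duct, thick limb and urothelium. The endothelium sum was 280 to 492 CPM over all libraries, podocyte 429 to 916, collecting duct 153 to 895, thick limb 1610 to 12800 and urothelium 0.215 to 47 CPM. Positions and exon lengths came from GENCODE M21, promoters (250 bases before a start) from RefSeq on GRCm38.p6. Alternatives were 0.1 as the pseudocount, testing without a filter or with one at 5 CPM, scaling by the median of ratios, a fit of the compared groups only, the replicate number as a block, edgeR and leaving out each library; leaving out the 3 libraries that stood apart was added after seeing the data. The fit was tested on simulated data.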

Additional observations from a re-analysis of the deposited data

Results flagged for a closer look

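The rise of Mmp7 after AAI was called different between the genotypes by limma, a call that was lost in several alternatives. On the log2(CPM + 1) scale the PTKO response minus the fl/fl response was -1.65 at 3 weeks (limma adjusted p = 0.0482) and -2.37 at 6 weeks (adjusted p = 0.0161). All 3 libraries of each AAI group were above their DMSO group, and all PTKO libraries were below all fl/fl libraries. The call at 3 weeks was lost with any of 11 single libraries left out and the call at 6 weeks with either of 2. Both were lost with a pseudocount of 0.1 (adjusted p = 0.0999 and 0.0992) and with edgeR (0.872 and 0.812), and the 3-week call also without a filter (0.0621) and with median-of-ratios scaling (0.0563). With 3 DMSO reads in all, this difference on the log2(CPM + 1) scale is nearly the PTKO minus fl/fl difference after AAI (-1.68 and -2.40).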

How the results depend on the processing

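None of the 151 calls of members picked by the stated rule turned its direction in any alternative. The direction of the remaining member calls was not checked across the alternatives. Of the 167 member calls in the 11 comparisons, 56 were lost in at least 1 other setting (some because the filter at 5 CPM left the member untested) and 39 with at least 1 library left out. Rises after AAI kept within 1.5 times of their count in all settings. Members lower in fl/fl went from 1 to 2 at 3 weeks and from 1 to 3 at 6 weeks with median-of-ratios scaling and with edgeR, and were 1 to 2 at both times with single libraries left out (2 without fl/fl 3-week replicate 2 and without fl/fl DMSO replicate 3, in that order). Without the 3 libraries that stood apart 22 of the 27 calls in PTKO at 6 weeks were kept, and those of Mmp3, Mmp9, Mmp25, Adamts4 and Adamts9 were lost. Members lower in PTKO than in fl/fl were 2 to 16 at 3 weeks with single libraries left out (13 with all), and 8 to 20 at 6 weeks (16 with all), where the fit of the compared groups only gave 5. From 3 to 6 weeks, members higher in fl/fl went from 3 to 0 with the compared groups only and to 1 without the 3 libraries that stood apart, and to 1 to 4 with single libraries left out. Members lower in fl/fl between these times went from 4 to 1 with a pseudocount of 0.1, to 2 without the 3 libraries, and to 0 to 7 with single libraries left out. In PTKO members higher between these times were 0 to 1 and members lower 4 to 13 with single libraries left out, and 4 were lower with the compared groups only (10 in the full fit). The lower interaction count at 3 weeks went from 1 to 0 with a pseudocount of 0.1, no filter, median-of-ratios scaling and edgeR, to 5 with the compared groups only, and to 0 to 3 with single libraries left out (3 without replicate 1 of either 3-week group or fl/fl 6-week replicate 2). At 6 weeks it went from 1 to 0 with a pseudocount of 0.1 and edgeR, to 2 without the 3 libraries, and to 0 to 4 with single libraries left out (4 without fl/fl 6-week replicate 2). Apart from median-of-ratios scaling, calls among all genes were not counted in these alternatives, so the member counts cannot be set against a share of all genes. The cause of these changes was not tested, beyond the smaller number of libraries where some were left out.

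Libraries with the same replicate number did not deviate together: over 45 pairs the correlation of deviations ran from -0.37 to 0.49 (median 0.0082), and 5 of 18 libraries correlated best with their own number. With the replicate block 11 members were lower in PTKO at 3 weeks (13 without it) and 17 at 6 weeks (16 without it). Depth limits the 13 untested members, where a few reads decide a value. The labels do not state separate animals, and group spreads were pooled in 1 fit.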
